A study of Selaginella nipponica with 6 samples.

Results

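Among 206768 unigenes of *Selaginella nipponica*, 41 were abundant in the prostrate shoots and strongly lower in the erect shoots. A unigene is the longest assembled transcript of a gene, as the Trinity assembler defines genes. The level of a unigene is given throughout in CPM, its estimated count relative to the total count of the library, scaled to counts per 1000000. A unigene entered the set if its mean over the prostrate libraries was at least 20 CPM, its mean over the erect libraries was at most 15% of that, and its lowest prostrate library lay above its highest erect library. The set was therefore chosen from the same levels that are described here, and the difference between the shoots is the basis of the choice and no finding.

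*S. nipponica* is a lycophyte (spikemoss). The plants were wild, untreated and from 1 population. The erect shoots were taken with their sporangia (3 libraries), and the prostrate shoots with their emerging roots (3 libraries). The libraries of a shoot type were subsamples, so that the spread between them is the spread between subsamples, which may in part be technical.

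Prostrate shoots of a spikemoss creep over the soil, photosynthesize and bear the organs from which roots arise. Erect shoots of this species come later and carry the sporangia in which spores form. The samples thus differ in organs as well as in shoot type, and in such bulk tissue fewer cells of a type and less RNA per cell cannot be told apart. Names of gene functions were available for 3 of the 41 unigenes, and the other 38 are known here only by their identifiers.

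The libraries held 18001138 to 20243960 counts in the erect shoots and 15679144 to 17584114 counts in the prostrate shoots. Of all unigenes, 7536 had a prostrate mean of at least 20 CPM. The erect mean of these was at a median of 100% of the prostrate mean, with quartiles at 77.0 and 121% and a 5th percentile at 40.3%. A ratio of at most 15% was reached by 49 of them, 0.650% of the 7536, and 8 of the 49 had libraries that overlapped between the shoots.

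In the 41 unigenes, the erect mean was between 0.112 and 14.8% of the prostrate mean, with a median of 10.3%. It was at most 1% in 2 unigenes, at most 5% in 11, between 5 and 10% in 9 and between 10 and 15% in 21. The unigenes thus gathered toward the 15% bound. Their erect means were between 0.035 and 212 CPM, and their prostrate means between 20.1 and 1482 CPM. Many remained measurable in the erect shoots, where 16 were still at 10 CPM or more and 6 were below 1 CPM.

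**Figure D1:**
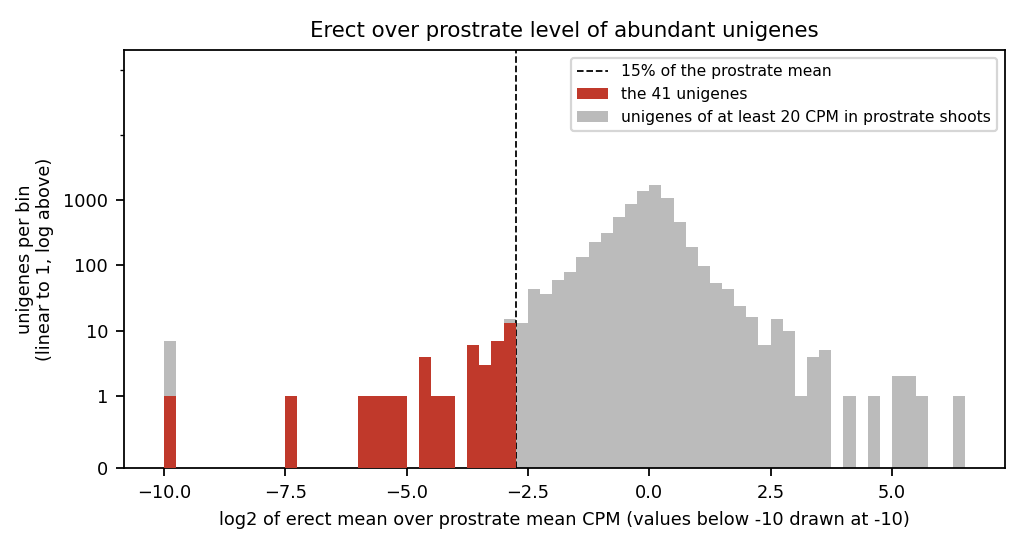
Distribution of the log2 ratio of the erect mean to the prostrate mean in CPM over 7536 unigenes with at least 20 CPM in the prostrate shoots (grey) and the 41 unigenes of the set (red). The vertical axis counts unigenes per bin, linear to 1 and logarithmic above, and the red bars lie left of the dashed line at 15%, with most of them close to it.

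Summed over the set, the 41 unigenes took 0.0501, 0.0739 and 0.0904% of the counts in erect replicates 1, 2 and 3, against 0.726, 0.746 and 0.689% in prostrate replicates 1, 2 and 3. The means were 0.0715% ± 0.0202 in erect shoots and 0.720% ± 0.0287 in prostrate shoots (SD, n = 3 each). Although single unigenes varied widely, their sum was nearly level over the prostrate libraries. The sum was less even over the erect libraries, at 6.96, 10.3 and 12.5% of the prostrate mean. A few unigenes held most of it, since the first in level had 20.6% of the prostrate sum, the first 4 had 54.1% and the first 10 had 73.7%. Without the most abundant one, DN100630_c1_g1, the share was 0.0503% ± 0.00532 in erect shoots and 0.572% ± 0.0541 in prostrate shoots (SD, n = 3 each). It was then 0.0462, 0.0484 and 0.0563% in erect replicates 1, 2 and 3, against 0.541, 0.540 and 0.635% in prostrate replicates 1, 2 and 3. Relative to their means, both shoot types were then about equally even, so that the contrast in evenness rested mainly on this unigene.

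The 3 unigenes with a described function resemble genes linked to defence or to responses to the environment. The study picked them out, and no theme follows for the rest of the set. DN101696_c0_g1 is close to a pathogenesis-related thaumatin gene, a family whose members in flowering plants are induced by pathogens and act against fungi. It had 29.1, 17.3 and 13.5 CPM in erect replicates 1, 2 and 3, against 129, 182 and 150.0 CPM in prostrate replicates 1, 2 and 3. The groups were well apart, and the prostrate libraries lay close together, with an erect mean of 13.0% of the prostrate mean and a log2 fold change of -3.06 (SE 0.325).

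DN105307_c0_g2 is a homolog of genes for the removal of chemical contaminants. It had 28.0, 22.8 and 43.7 CPM in the erect libraries, against 178, 183 and 298 CPM in the prostrate libraries. Replicate 3 was the highest of both shoot types, and the erect mean was 14.4% of the prostrate mean, with a log2 fold change of -2.91 (SE 0.329). DN93544_c0_g1, a homolog of genes that respond to salt stress, had 18, 23.1 and 8.95 CPM in the erect libraries, against 112, 90.6 and 143 CPM in the prostrate libraries. Its erect mean was 14.5% of the prostrate mean, close under the bound, and its log2 fold change was -2.90 (SE 0.36). The described functions come from homologs in other plants and were not measured in *S. nipponica*.

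These 3 unigenes belong to a list of 28 that the study names, as homologs of genes for development, stress or nutrition or as members of the SPL and AP2 families of transcription factors. The list was partly chosen for its levels in these shoots and is no independent evidence of a direction. Of the 28, 26 could be tested with edgeR, with 12 lower in erect shoots, 5 higher and 9 past neither threshold. Of all 23275 unigenes tested, 5.31% were lower and 7.94% higher.

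Another 3 of the 28 had an erect mean of at most 15% and stayed outside the set because they were below 20 CPM. DN99249_c0_g1, a homolog of *Arabidopsis* genes that affect the development of shoot and root, had 0.346, 0 and 0.109 CPM in the erect libraries, against 14.8, 16.8 and 15.5 CPM in the prostrate libraries. The 0 of erect replicate 2 allows a level of up to 0.167 CPM at its depth. The prostrate libraries of this unigene were nearly level, and its ratio of 0.966% was below that of all but 2 of the 41. The other two were DN103335_c0_g1, an SPL unigene of the clade with a miR156 site, at 4.49%, and DN93809_c0_g2, of the ANT clade, at 2.60%. DN106508_c2_g1, an SPL unigene of another clade, stayed outside by its ratio of 16.5%, with 12, 12.4 and 10.8 CPM in the erect libraries, against 48.1, 79.0 and 85.6 CPM in the prostrate libraries.

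**Figure D2:**
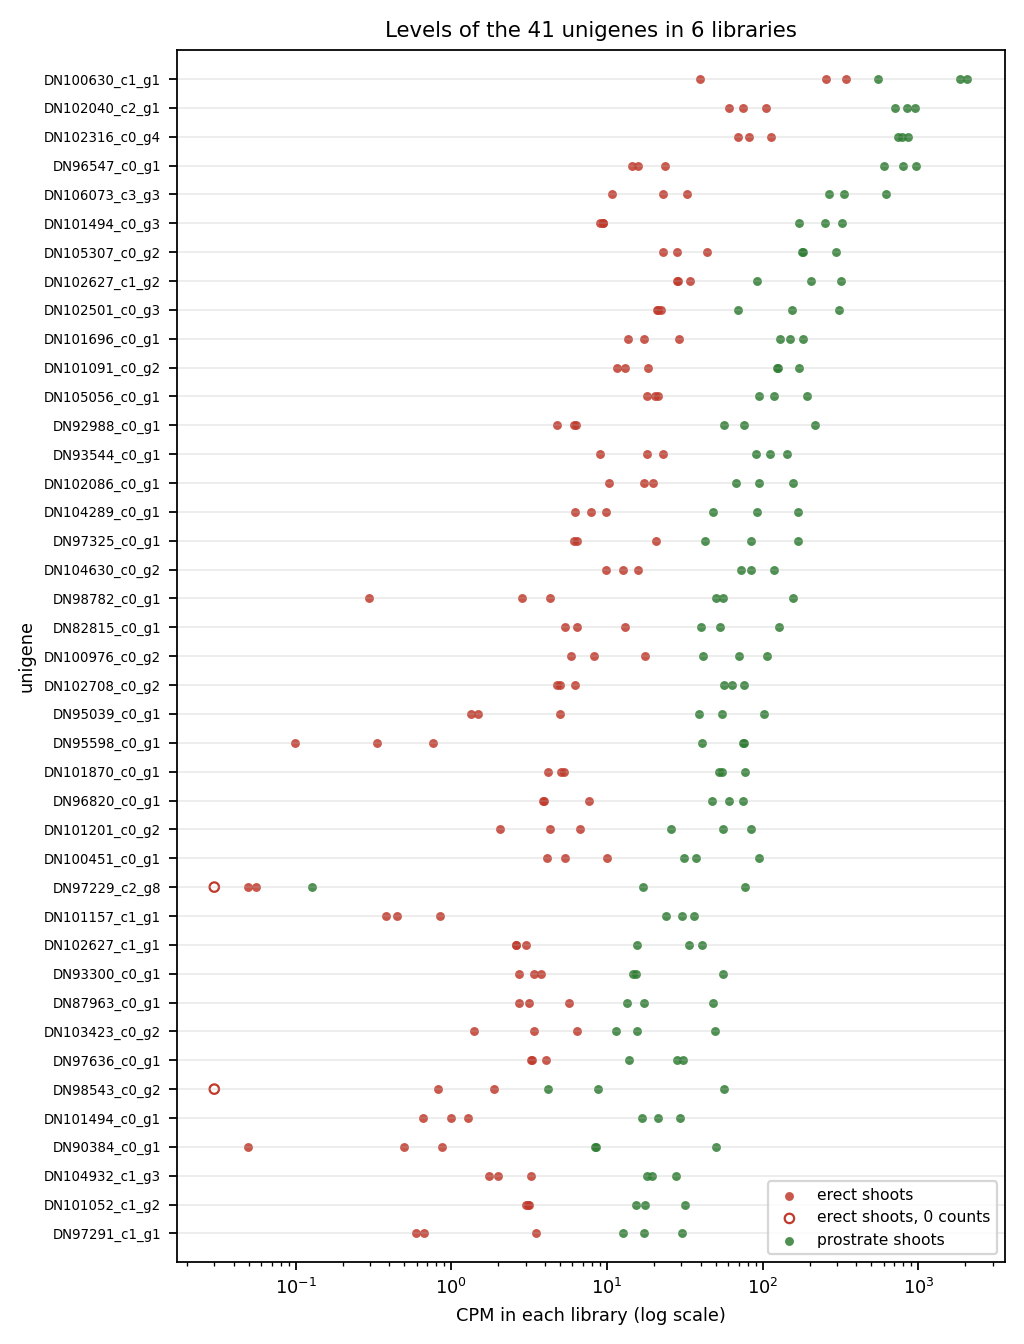
CPM of each of the 41 unigenes in every library on a log axis, with erect libraries in red and prostrate libraries in green, ordered by prostrate mean. Open circles are erect libraries with 0 counts, drawn at the left edge, and the red and green points of a unigene do not overlap, which the choice required.

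The most abundant unigenes differed in how evenly they were expressed. DN100630_c1_g1 had 39.5, 255 and 340.4 CPM in erect replicates 1, 2 and 3, against 1841, 2058 and 547 CPM in prostrate replicates 1, 2 and 3. Both groups were spread widely, at 212 ± 155 CPM in erect shoots and 1482 ± 817 CPM in prostrate shoots (SD, n = 3 each), and its lowest prostrate library was only 1.61 times its highest erect library, the narrowest gap in the set. Its log2 fold change was -2.93 (SE 0.806), and it passed the thresholds of edgeR in only 1 of the 6 fits that left out a library. DN100630_c1_g1 ranked 927th of all unigenes by its erect mean and 38th by its prostrate mean.

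DN102040_c2_g1 was more even. It had 75, 60.6 and 106 CPM in the erect libraries, against 950.3, 703 and 841 CPM in the prostrate libraries, with a log2 fold change of -3.48 (SE 0.269). DN102316_c0_g4 had the most even prostrate level of the set, at a coefficient of variation of 7.80%. It had 69.2, 113 and 81.2 CPM in the erect libraries, against 862, 787 and 739 CPM in the prostrate libraries, with a log2 fold change of -3.29 (SE 0.239).

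DN96547_c0_g1 joined a high prostrate level with a low erect one. It had 23.7, 15.9 and 14.4 CPM in the erect libraries, against 968, 605 and 799 CPM in the prostrate libraries. The lowest prostrate library was 25.5 times the highest erect library, the erect mean was 2.28% of the prostrate mean, and the log2 fold change was -5.56 (SE 0.309). It ranked 8263rd by its erect mean and 102nd by its prostrate mean.

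DN106073_c3_g3 had 10.8, 32.8 and 22.8 CPM in the erect libraries, against 265, 622 and 334 CPM in the prostrate libraries, so that replicate 2 was the highest in both. DN101494_c0_g3 had 9.43, 9.39 and 9.01 CPM in the erect libraries, against 250.5, 171 and 322 CPM in the prostrate libraries. Its erect libraries differed little, with a coefficient of variation of 2.52% and a log2 fold change of -4.84 (SE 0.271). DN102708_c0_g2, at a lower level, was even in both shoots, with 6.22, 5.0 and 4.75 CPM in the erect libraries, against 56.4, 76.3 and 64.0 CPM in the prostrate libraries.

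The lowest ratios belonged to unigenes that were nearly silent in the erect shoots. DN95598_c0_g1 had 0.0988, 0.333 and 0.764 CPM in the erect libraries, against 76.2, 40.8 and 74.2 CPM in the prostrate libraries. It had the widest gap of the set, its lowest prostrate library being 53.3 times its highest erect library, and a log2 fold change of -7.42 (SE 0.591). DN101157_c1_g1 was likewise below 1 CPM in each erect library, at 0.840, 0.444 and 0.382 CPM, against 36.4, 24.0 and 30.1 CPM in the prostrate libraries.

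DN97229_c2_g8 had the lowest ratio, 0.112%, and also the least even prostrate level. It had 0.0494, 0.0556 and 0 CPM in the erect libraries, against 76.4, 0.128 and 16.9 CPM in the prostrate libraries. The 0 of erect replicate 3 allows a level of up to 0.164 CPM, which is above the value of prostrate replicate 2, so that the separation of these 2 libraries was not detectable at this depth. Its prostrate level was 886 times its erect level (exact 95% interval 245 to 7326, for counting error only, from 2 erect and 1559 prostrate counts). Without prostrate replicate 1 the ratio was 255 (70.0 to 2116). That value rested on 298 counts in prostrate replicate 3, beside 2 counts in replicate 2. Neither interval covers the spread between libraries. DN97229_c2_g8 was the only 1 of the 41 that edgeR's filter on low counts removed. Whether the reads of unigenes found mostly in a single library all came from *S. nipponica* was not tested.

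Such single high libraries recurred. DN98543_c0_g2 had 0, 1.89 and 0.819 CPM in the erect libraries, against 4.19, 8.74 and 56.6 CPM in the prostrate libraries, where replicate 3 was 6.48 times the next library. The 0 of erect replicate 1 allows up to 0.148 CPM, so its level there was under that of any prostrate library. Its log2 fold change was -4.79 (SE 1.32), and it passed the thresholds in none of the fits that left out a library. DN90384_c0_g1 had 0.0494, 0.50 and 0.874 CPM in the erect libraries, against 8.32, 8.48 and 49.9 CPM in the prostrate libraries, where replicate 3 was 5.89 times the next.

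In 11 of the 41 unigenes (26.8%), 1 prostrate library was above 2 times the next, compared with 3.66% of the 7536 abundant unigenes. These shares are no test, since a high library by itself could carry a unigene past the bounds on level and ratio, as in DN98543_c0_g2 and DN90384_c0_g1. Prostrate replicate 3 was the high library in 9 of the 11, and replicates 1 and 2 in 1 each. It was also the high library in 60.5% of the 276 abundant unigenes of this kind. Over the whole set, prostrate replicate 3 was the highest of its group in 19 unigenes (46.3%) and replicate 1 in 9 (22.0%), near the 42.4 and 20% of the abundant unigenes. Replicate 3 was the lowest in 6 (14.6%) and replicate 1 in 20 (48.8%), compared with 39.8 and 29.5% of the abundant unigenes. Relative to the prostrate mean of each unigene, the medians were 83.5, 83.7 and 112% in replicates 1, 2 and 3.

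**Figure D3:**
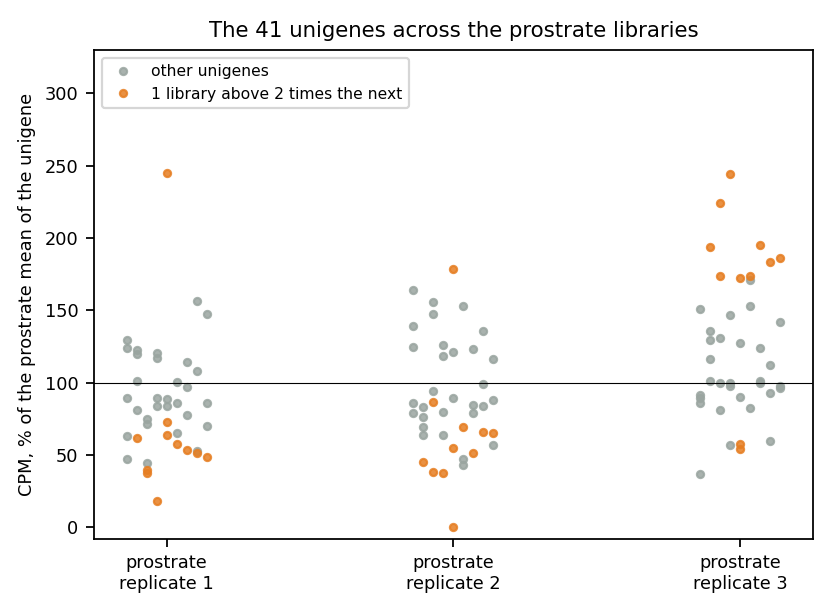
CPM of the 41 unigenes in each prostrate library, as a percentage of the prostrate mean of the unigene, with points shifted sideways for legibility. The 11 unigenes with 1 library above 2 times the next are in orange, and 9 of their high points are in replicate 3.

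The spread over replicates comes from the same levels that the rule used, and 1 high prostrate library raises the prostrate mean and so favours entry into the set. The comparison with other unigenes of like level is therefore a description. The median coefficient of variation over the erect libraries was 34.7% in the set and 18.1% in 6481 unigenes with erect means between 2.74 and 16.7 CPM. Over the prostrate libraries it was 42.8% in the set and 21.3% in 4523 unigenes with prostrate means between 29.8 and 140.2 CPM. Without replicate 3, an alternative chosen after seeing the data for the other unigenes, the values were 17.5% in the set and 14.1% in the others over the erect libraries, and 24.0 and 12.4% over the prostrate libraries. Erect replicate 3 was the highest of its group in 22 of the 41 unigenes (53.7%). Among the 7879 unigenes with an erect mean of at least 20 CPM, it was the highest in 40.9%. Only 7 of the 41 reached that erect level, so that the levels compared are unlike.

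That each unigene was lower in the erect libraries than in every prostrate library follows from the rule, and the ratio to the other prostrate libraries is given for size only. In the 9 unigenes led by prostrate replicate 3, the erect means were between 5.65 and 27.6% of the mean of prostrate replicates 1 and 2, with a median of 18.8%. Of the 41, 30 had an erect mean of at most 15% of these 2 libraries, and none was above 27.6%.

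The 20 unigenes that are not described singly had erect means between 2.34 and 21.5 CPM and prostrate means between 21.7 and 177 CPM. Their erect means were between 2.85 and 14.7% of the prostrate means. Their coefficients of variation over the prostrate libraries were between 18.6 and 82.5%.

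DN97291_c1_g1 and DN101052_c1_g2 were just inside the bound on level, with prostrate means of 20.1 and 21.5 CPM, and DN103423_c0_g3 and DN103237_c1_g1 were just outside, each at 18.9 CPM, with ratios of 4.30 and 2.78%. DN102086_c0_g1 and DN102627_c1_g2 were just inside the bound on the ratio, each at 14.8%. DN104509_c0_g2 was just outside at a ratio that also rounds to 15%, with means of 39.5 CPM in erect and 263 CPM in prostrate shoots, followed by DN102293_c0_g1 at 15.7%, with 6.58 CPM in erect and 42.0 CPM in prostrate shoots.

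Trinity groups transcripts that share sequence into components and divides a component into unigenes, which may be related genes, alleles or pieces of a transcript. The 41 unigenes came from 39 components. In 2 components a pair of unigenes belonged to the set. DN101494_c0_g1 had 0.988, 1.28 and 0.655 CPM in the erect libraries, against 16.8, 21.2 and 29.4 CPM in the prostrate libraries, at a ratio of 4.33%, near the 3.74% of DN101494_c0_g3. In the other pair, DN102627_c1_g2 had 28.3, 28.8 and 34.0 CPM in the erect libraries, against 91.8, 320.4 and 205 CPM in the prostrate libraries, and DN102627_c1_g1 had 2.62, 2.61 and 3.00 CPM in the erect libraries, against 15.7, 40.5 and 33.4 CPM in the prostrate libraries. Both unigenes of that pair were lowest in prostrate replicate 1 and highest in replicate 2. The remaining unigene of that component, DN102627_c1_g3, went the other way, with means of 22.1 CPM in erect and 10.7 CPM in prostrate shoots. Its log2 fold change of 0.93 (SE 0.404) passed no threshold. Summed over component DN102627_c1, the erect mean was 22.4% of the prostrate mean.

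The components held 46 further unigenes, in 22 components. Of the 35 that could be tested, 14 (40.0%) were lower in erect shoots and 0 were higher, with 5.31 and 7.94% of all 23275 tested unigenes as the background, and 21 passed neither threshold. Their median log2 fold change was -1.20, compared with -0.01 over all tested unigenes. Reads can be divided between similar unigenes, so that these values are not independent of the set.

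Some components differed within themselves. DN101494_c0_g2 had 547, 542 and 528 CPM in the erect libraries, against 685, 697 and 524 CPM in the prostrate libraries, and passed no threshold at a log2 fold change of -0.35 (SE 0.184). Its groups overlapped, although the other two unigenes of the component were at 3.74 and 4.33%. DN102316_c0_g1 had 196, 212 and 271 CPM in the erect libraries, against 308, 338 and 323 CPM in the prostrate libraries, a ratio of 70.0% beside the 11.0% of DN102316_c0_g4. DN98543_c0_g1 had 124, 106 and 102 CPM in the erect libraries, against 87.9, 98.2 and 79.0 CPM in the prostrate libraries, with a log2 fold change of 0.21 (SE 0.176) that passed no threshold.

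Other components had neighbours that were low as well. In component DN104630_c0, the unigenes g4, g5 and g6 had erect means of 15.7, 17.9 and 18.7% of the prostrate means, just outside the bound, and all were called lower in erect shoots. Its unigenes g1 and g3 had prostrate means of only 1.03 and 1.13 CPM. Of these, g1 was at 3.58% and called lower, and g3 was at 25.4% and not called. After counts were summed over each component, 26 of the 39 components met the rule. Of the 22 components with several unigenes, 9 met it and 13 did not, and in 3 of these the summed erect mean was above 50% of the prostrate mean, at 99.9% in DN98543_c0, 60.6% in DN101494_c0 and 57.1% in DN101091_c0.

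**Figure D4:**
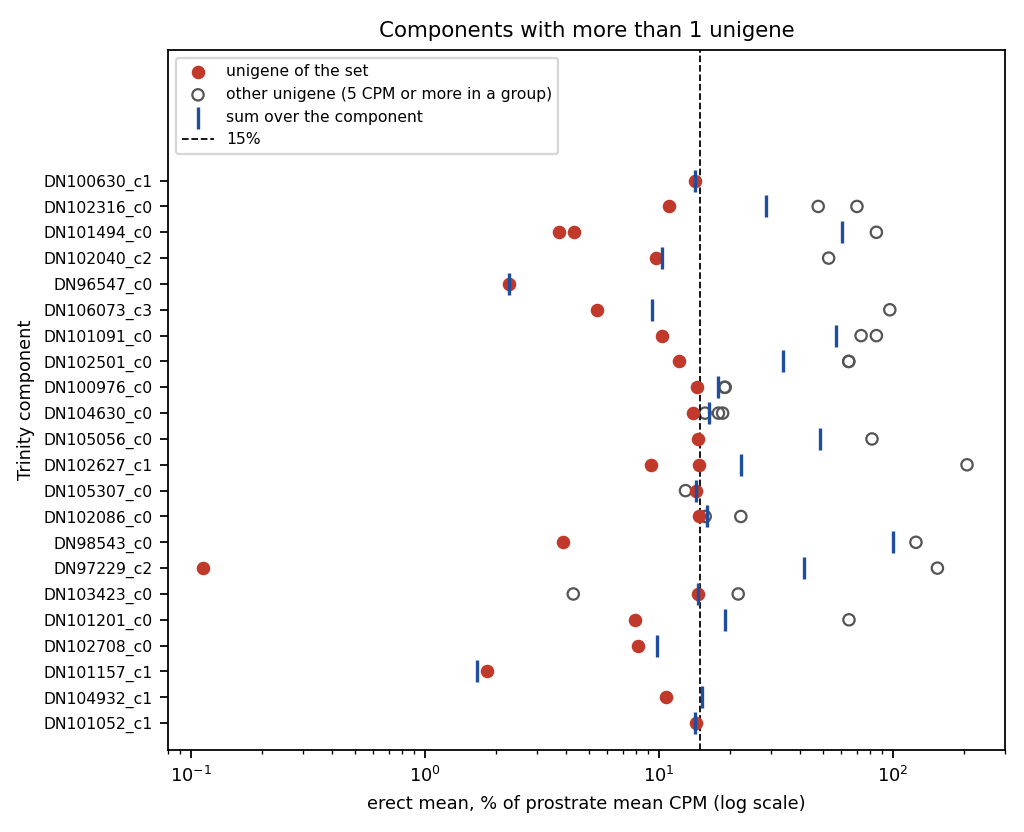
Erect mean as a percentage of the prostrate mean in CPM, on a log axis, for the 22 components with more than 1 unigene. Red points are the unigenes of the set, open circles the other unigenes with at least 5 CPM in a shoot type and an erect mean above 0, and blue bars the sums over the component, 13 of which do not meet the rule at the dashed line of 15%.

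The choice was repeated on 4 libraries, and the ratio was then read in the 2 libraries that had been left out. These were subsamples of the same harvest of each shoot type, so that they give no independent replication. The replicate numbers showed no sign of a pairing between shoot types. A ratio within a left-out pair therefore depends on which libraries happen to share a number. The chosen unigenes were only partly those of the set. They included 36, 34 and 29 of the 41 when replicates 1, 2 and 3 were left out. With replicates 1 left out, 46 unigenes were chosen, and 22 (47.8%) had an erect level of at most 15% in the left-out libraries, with 1.65% of 7570 abundant unigenes as the background. With replicates 2 left out, it was 26 of 45 (57.8%), with a background of 0.818%. With replicates 3 left out, it was 25 of 78 (32.1%), with a background of 0.876%. The median ratios in the left-out libraries were 15% for replicates 1, 13.8% for replicates 2 and 33.7% for replicates 3, so that only the last was clearly above the bound. Of the unigenes chosen without replicates 3, 13 of 78 had a higher erect than prostrate level in the left-out pair, with a ratio of up to 441%. The same held for 4 of 46 chosen without replicates 1, with a ratio of up to 258%, and for 0 of 45 chosen without replicates 2. Of the 78 unigenes chosen without replicates 3, 49 were outside the set, and 25 had a level in prostrate replicate 3 of less than 50% of the mean of the other two. In all 3 runs, 20 of the 41 unigenes were chosen.

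**Figure D5:**
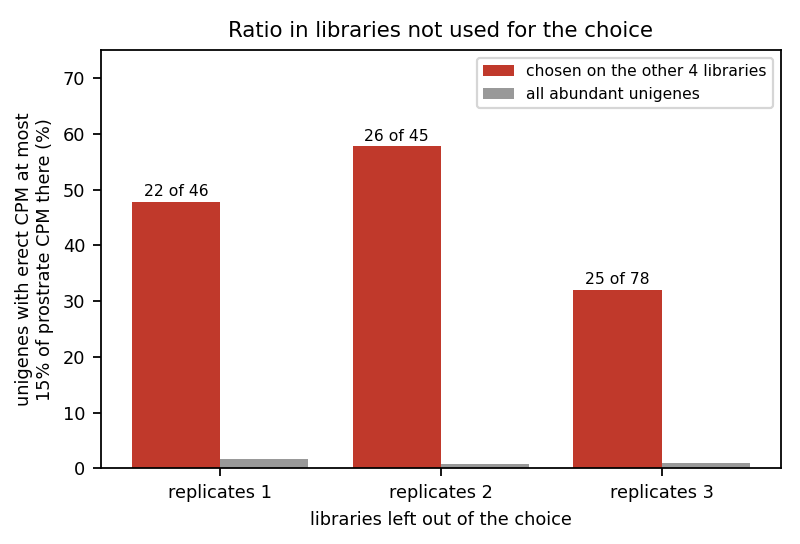
Percentage of unigenes with an erect level of at most 15% of the prostrate level in the pair of libraries left out of the choice, for unigenes chosen on the other 4 libraries (red, with counts above the bars) and for all abundant unigenes (grey). The red bars are at 47.8, 57.8 and 32.1%, and the grey bars at 1.65, 0.818 and 0.876%.

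In the edgeR fit on all unigenes, with calls at an adjusted p under 0.05 and a log2 fold change beyond 1, 40 of the 41 were tested and 40 were called lower in erect shoots, with a background of 5.31%. As the rule used this contrast, nothing follows from the count. The median log2 fold change of the 40 was -3.36, with a median SE of 0.416, against 0.366 over all tested unigenes. In the fits that left out 1 library each, 35 of the 41 were called in all 6. The other 6 were DN100630_c1_g1, DN97325_c0_g1, DN87963_c0_g1, DN103423_c0_g2, DN98543_c0_g2 and DN97229_c2_g8.

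The opposite set, with at least 20 CPM in the erect shoots, a prostrate mean of at most 15% of that and no overlap, held 252 of 7879 unigenes (3.2%). Its counts made up 6.98% ± 0.544 of the erect libraries and 0.218% ± 0.0103 of the prostrate libraries (SD, n = 3 each). The 41 unigenes were thus fewer and less extreme. In the shoot type where they were low, 6 of the 41 (14.6%) had a mean below 1 CPM, compared with 91 of the 252 (36.1%), and a ratio of at most 5% was reached by 11 (26.8%), compared with 156 (61.9%). As both sets were chosen by ratio, these values are a description.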

How the data were processed

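Reads of 6 libraries had been assembled with Trinity, and the authors deposited estimated counts per unigene, without normalization for library size or transcript length and without pooling. For the counting step, no program was given in the sources used here. The submitters' processing notes name Trimmomatic 0.36 and HISAT2 2.1.0. Values that are not whole, as programs give that divide reads between similar sequences, occurred in 35 of the 41 unigenes (85.4%), against 96.1% of the abundant ones. A level in CPM also depends on transcript length, so that levels of different unigenes are not directly comparable.

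Estimated counts were rounded, and CPM used library totals. Differences between shoots were fitted in R 4.3.3 with edgeR 4.0.16 (quasi-likelihood F-test, TMM scaling, filterByExpr with minima of 10 counts and 15 in total, Benjamini-Hochberg adjustment over all 23275 unigenes tested). Log2 fold changes are erect minus prostrate. The F-test gives no SE of its own. The SE printed here was derived as the absolute log2 fold change, estimated without shrinkage, divided by the square root of F. Scripts were tested on simulated data. Alternatives were DESeq2 1.42.0, limma-voom (limma 3.58.1), other scalings, thresholds and filters, a replicate block, component sums and each library left out in turn.

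The unigenes described singly were those the study names, the 6 most abundant, the 4 of lowest ratio, the 3 most and 3 least variable in prostrate shoots, those next to the bounds, and those of the components with most members of the set, with their abundant neighbours. Others named as passing or failing a fit, as exclusions or as component neighbours were chosen after their values were seen. The set and the lists were chosen with earlier results of these data known. No sequences, genome or annotation were used here.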

Additional observations from a re-analysis of the deposited data

How the results depend on the processing

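With an upper bound of 10 or 20% in place of 15%, the set held 20 or 88 unigenes. It held 34 to 72 with 1 library left out, the 72 without erect replicate 3. TMM scaling gave 52 unigenes and DESeq2 size factors 55, and both kept all 41. The share of counts in prostrate shoots was 0.749% with TMM scaling. Without DN100630_c1_g1, an alternative chosen after seeing the data, it was 0.0503% in erect and 0.572% in prostrate shoots. With 1 library left out, the median coefficient of variation was 17.5 to 34.5% in erect and 24.0 to 40.9% in prostrate shoots. At a bound of 50% in the left-out libraries, 41 of 46 (89.1%), 44 of 45 (97.8%) and 45 of 78 (57.7%) of the unigenes chosen without replicates 1, 2 and 3 were at or below it, with backgrounds of 11.7, 9.34 and 8.4%.

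With the replicate block, 38 unigenes of the set were called. Deviations of libraries with the same number correlated at -0.28, 0.03 and -0.13, and those with unlike numbers at -0.12 to 0.22. The numbers thus gave no sign of a pairing, but with 3 libraries per group this check cannot exclude one. Calls were 40 with DESeq2, 39 with limma-voom, 38 with library totals, 41 without a filter and 35 to 39 with 1 library left out. Over all tested unigenes, library totals moved the median fold change to 0.10 (log2). Over 180 alternative fits of 20 singly described unigenes, 0 reversed and 16 fell short of the thresholds, 7 of them for DN100630_c1_g1 (edgeR or DESeq2 adjusted p 0.0526 to 0.129) and 9 for DN98543_c0_g2 (0.0537 to 0.138). The shares and ratios of low unigenes rest on few counts, down to 2 over the erect libraries in DN97229_c2_g8.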

Other observations

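Of the 8 unigenes that met the bounds on level and ratio but overlapped between the shoots, 6 were found almost only in prostrate replicate 3. They had 67.4 to 274.9 CPM there and at most 1 count in any other library of either shoot type. They were noticed after their values were seen, and whether their reads came from *S. nipponica* was not tested.

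DN101091_c0_g3, a neighbour of DN101091_c0_g2 of the set, varied among libraries of both shoot types. It had 0, 148 and 333 CPM in erect replicates 1, 2 and 3, against 253, 6.44 and 308 CPM in prostrate replicates 1, 2 and 3. In component DN97229_c2, 6 of the 8 unigenes outside the set had 0 counts in all erect libraries, and 4 of the 6 were highest in prostrate replicate 1, the library that was also highest for DN97229_c2_g8. The 6 reached up to 31.3 CPM in prostrate replicate 1, 1.79 CPM in replicate 2 and 1.14 CPM in replicate 3. DN97229_c2_g2, also outside the set, was present in every library, with means of 36.3 CPM in erect and 23.5 CPM in prostrate shoots. Summed over component DN97229_c2, the erect mean was 41.7% of the prostrate mean.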
